A study of Homo sapiens with 54 samples.

Results

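The transcripts of 10 genes whose products set how strongly and for how long a G protein-coupled receptor signals were followed through every library of the series. The genes were chosen by gene symbol from the 60676 genes listed for each library, and they comprised 4 regulators of G protein signalling (RGS2, RGS4, RGS9 and RGS16), 4 G protein-coupled receptor kinases (GRK2, GRK3, GRK5 and GRK6) and both beta-arrestins (ARRB1 and ARRB2). All 10 were found in all 53 libraries analysed here and all 10 passed the filter on low counts in all 27 comparisons. The cells were human medium spiny neuron-like (hMSN-like) cells, cultures differentiated from the H9 (WA09) embryonic stem cell line towards the main neuron type of the striatum, and total RNA was sequenced from each culture. Controls received PBS, ascorbic acid or water, and all cells came from 1 line, so the spread between libraries is a spread between cultures or library preparations of the same line.

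The series held 4 experiments. In the first, cells received 1 mM dopamine once (Acute) or daily for 5 days (Chronic), each dose lasting 1 h, and were extracted 1 h or 24 h later beside a PBS control. The second repeated this layout with 1 µM dopamine. The third was a time course in which cells received 1 mM dopamine daily for 2, 3, 4 or 5 days (2 Day to 5 Day) and were compared with ascorbic acid (AA), the antioxidant in which the dopamine was dissolved. The fourth compared 50 µM SKF82958, a D1-like receptor agonist, and 50 µM Quinpirole, a D2-like receptor agonist, with Water, and its labels give no time. Each of the 18 conditions had 3 libraries, apart from 5 Day with 2. The acute groups were dosed at an earlier day in culture than the chronic groups while each dose had a single PBS group, so regimen and day in culture cannot be told apart. Per the methods, dopamine was given in ascorbic acid, while the controls at 1 mM and 1 µM received PBS. In every comparison with PBS, dopamine and its ascorbic acid therefore cannot be told apart. Whether replicates came from separate differentiations is not stated, and p-values then measure only the spread between these libraries, which may be technical.

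Some libraries bear on the results more than others. Quinpirole replicate 1 held 137051 exon reads with 96.7% of its gene reads in introns, while the other 52 libraries held 5755919 to 27702963 exon reads, and it was left out of the levels given below. In the 1 mM experiment, Acute 24 h replicate 1 stood apart from its group, and 1 mM tests of the 10 genes are given with and without it because all groups share 1 estimate of the spread. In the 1 µM experiment, 4 libraries (PBS replicate 2, Acute 1 h replicate 2, Chronic 1 h replicate 2 and Acute 24 h replicate 1) had low levels of GC-rich transcripts, and results that rest on them are given with and without them. Markers of striatal neurons (11 of 11 detected at a mean of 1 TPM or more in controls, including PPP1R1B, DRD1 and DRD2) and of neurons in general (5 of 5) were present. Markers of neural progenitors (5 of 5), astrocytes (5 of 5) and fibroblast or mural cells (7 of 7) were present as well, so the RNA was that of a mixed culture, in which fewer cells of a type and less RNA per cell cannot be told apart.

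Dopamine receptors signal through heterotrimeric G proteins, whose alpha subunit is active while it holds GTP. RGS proteins speed up the hydrolysis of that GTP and so shorten the signal inside the cell. G protein-coupled receptor kinases act on the receptor itself by phosphorylating its active form, and the arrestins then bind the phosphorylated receptor, uncouple it from the G protein and help to draw it into clathrin-coated pits. RGS2, RGS4 and RGS16 are short proteins built around little more than the RGS domain, RGS2 behaves as an immediate early gene in neurons, RGS9 gives rise to the striatum-enriched isoform RGS9-2, and the GRKs and arrestins are expressed in most tissues. The comparison of acute with chronic dosing asks whether the transcripts of these brakes differ between a first and a repeated exposure to dopamine.

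The results turn on 3 RGS genes that lie on the long arm of chromosome 1, and the sequence just upstream of each annotated start is shown to give the regulatory context of the transcripts that changed. In the files' hg38 coordinates, RGS2 (ENSG00000116741) lay at chr1:192809039-192812275 on the plus strand, RGS4 (ENSG00000117152) at chr1:163068775-163076802 on the plus strand and RGS16 (ENSG00000143333) at chr1:182598623-182604389 on the minus strand. The sequences are RefSeq's for GRCh38.p14, read 5′ to 3′ on the strand of the gene and ending at the base before the gene model begins. They cover chr1:192808789-192809038 for RGS2, chr1:163068621-163068774 for RGS4 (154 bases, since the rest of the RefSeq window lay inside the gene model) and chr1:182604390-182604639 for RGS16. Capitals mark matches on either strand to the cyclic AMP response element half-site TGACG, the CCAAT box CCAAT and the GC box GGGCGG.
RGS2: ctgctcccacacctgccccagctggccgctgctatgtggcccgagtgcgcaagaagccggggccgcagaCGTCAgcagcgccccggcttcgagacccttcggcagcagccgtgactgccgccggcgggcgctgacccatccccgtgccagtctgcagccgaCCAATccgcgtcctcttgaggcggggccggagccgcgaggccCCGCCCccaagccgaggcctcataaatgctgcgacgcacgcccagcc
RGS4: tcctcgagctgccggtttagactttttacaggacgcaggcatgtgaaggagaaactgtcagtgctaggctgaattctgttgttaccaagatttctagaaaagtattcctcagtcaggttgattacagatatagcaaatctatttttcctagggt
RGS16: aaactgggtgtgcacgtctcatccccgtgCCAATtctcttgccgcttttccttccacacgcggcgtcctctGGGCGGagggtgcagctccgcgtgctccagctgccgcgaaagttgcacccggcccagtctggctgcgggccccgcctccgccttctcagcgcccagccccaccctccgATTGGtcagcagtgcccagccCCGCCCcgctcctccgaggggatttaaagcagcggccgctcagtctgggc

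The RGS2 window held a TGACG half-site that began 181 bases before the start, a CCAAT box at 89 bases and a GC box at 47 bases before it. The RGS16 window held a CCAAT box at 221 and at 71 bases and a GC box at 179 and at 50 bases before the start. RefSeq lists 4 promoter windows for RGS4, of which the most 5′ was searched and is shown in part, and it held none of the 3. The complete cyclic AMP response element TGACGTCA, the AP-1 site TGACTCA, the TATA box TATAAA and the EGR site GCGTGGGCG were also searched on both strands, and none of these longer motifs was found in the windows of RGS2, RGS4 or RGS16. Among the promoters of 27305 genes, 21.6% held TGACG, 33.0% CCAAT, 42.2% GGGCGG, 1.75% TGACGTCA, 4.15% TGACTCA, 11.2% TATAAA and 0.714% GCGTGGGCG, so the marked letters are common ones. TGACG lies within TGACGTCA and was counted apart from it. A match is a description of the letters and not a site.

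In controls, TPM, a level that is comparable between genes because it is divided by transcript length, placed RGS2 and GRK2 at the top of the 10 genes and RGS9 at the bottom. Over the 12 control libraries the median was 67.2 TPM for RGS2 (51.4 to 97.3), 53.6 TPM for RGS16 (31.9 to 81.6), 15.8 TPM for RGS4 (5.64 to 40.2) and 2.74 TPM for RGS9 (1.60 to 3.66). Of the kinases, GRK2, the widely expressed kinase that binds free G beta-gamma subunits, had a median of 73.1 TPM (34.1 to 87.5). GRK6 had a median of 33.7 TPM (11.3 to 36.7), GRK3 of 31.1 TPM (22.9 to 37.0) and GRK5 of 16.3 TPM (6.64 to 19.0). ARRB2 stood at 52.6 TPM (36.3 to 66.4) and ARRB1 at 24.4 TPM (11.5 to 44), so transcripts of arrestin 3, as the ARRB2 product is also known, were the more abundant in the median. The lowest control values of GRK2, GRK5, GRK6, ARRB1 and ARRB2 all came from 1 µM PBS replicate 2, a library low in GC-rich transcripts.

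**Figure D1:**
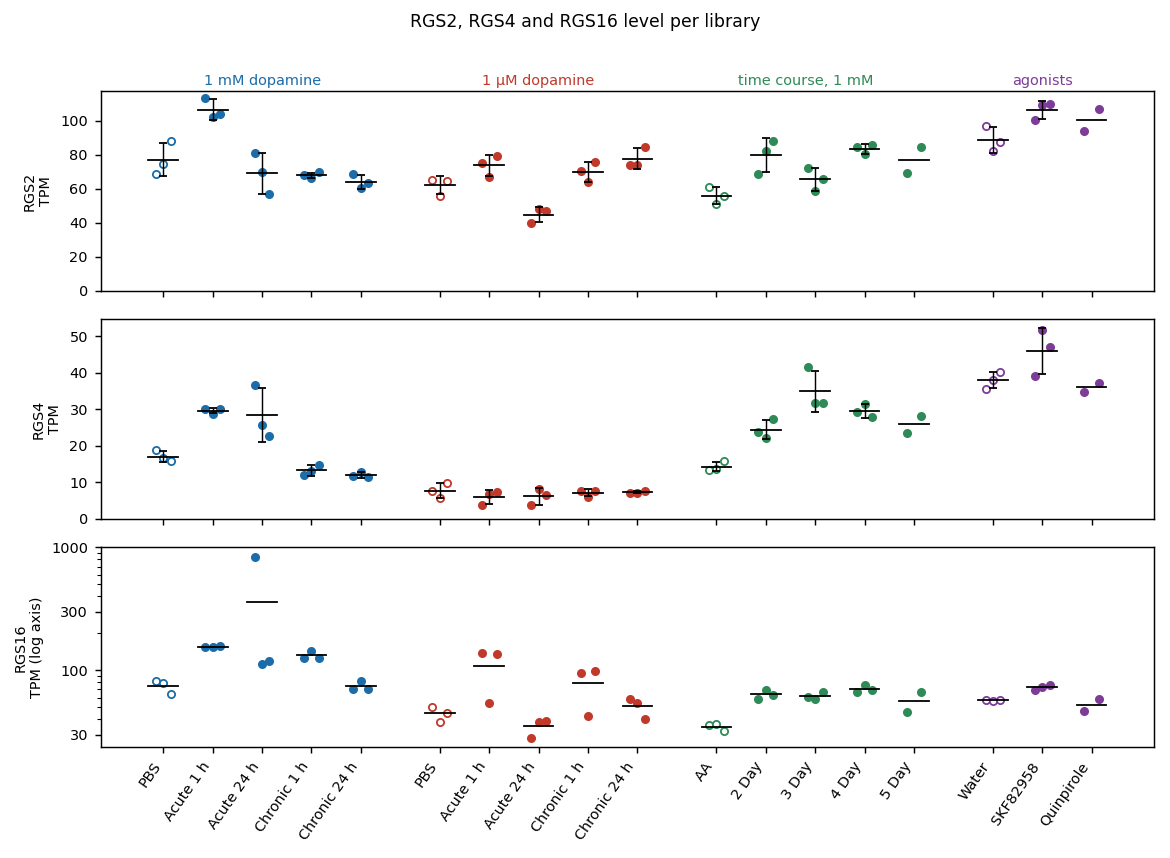
Level of RGS2, RGS4 and RGS16 in each library, in TPM (log axis for RGS16), by condition. Each point is 1 library (open for controls), lines are means, bars are 1 SD over 3 libraries (none for RGS16 or for conditions of 2), and Quinpirole replicate 1 is left out. RGS16 in 1 mM Acute 24 h replicate 1 stands at 839 TPM against 113 and 119 TPM in the other libraries of that condition.

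RGS4 spanned the widest range of condition means after RGS16, from 6.02 TPM in 1 µM Acute 1 h to 46.0 TPM in SKF82958, a ratio of 7.64. Its controls differed too: the means were 7.72 TPM in the 1 µM PBS group, 14.3 TPM in AA, 17.1 TPM in the 1 mM PBS group and 38.0 TPM in Water. Ordered by mean, 4 of the 17 neighbouring pairs of conditions had RGS4 libraries that did not overlap. RGS2 means ran from 44.9 TPM (1 µM Acute 24 h) to 107 TPM (1 mM Acute 1 h), and among its 17 neighbouring pairs only the lowest was set apart from the next, AA at 56.1 TPM. RGS16 means ran from 34.8 TPM in AA to 357 TPM in 1 mM Acute 24 h, the latter carried by a single library. RGS9 means stayed between 2.01 and 3.88 TPM, with no neighbouring pair set apart. RGS9 was also the least well measured member, with 34 to 148 exon reads in a library and a median of 69.0% of its reads in introns, and its values say little about small differences.

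At 1 mM, RGS2 and RGS4 transcripts were higher 1 h after a single dopamine dose and GRK5 transcripts were lower, which made 3 of the 10 genes past the threshold (adjusted p under 0.05, edgeR's quasi-likelihood test with Benjamini-Hochberg adjustment over all genes) where 16.0% of 17804 genes tested passed. RGS4, which acts on the Gi and Gq families of alpha subunits, stood at 18.8, 16.6 and 15.8 TPM in the PBS libraries and at 30.002, 28.8 and 30.02 TPM in the Acute 1 h libraries. The groups did not overlap, and RGS4 rose 1.81-fold, or by 0.86 ± 0.13 (SE) in log2(fold change), with an adjusted p of 0.00128. RGS2, which prefers Gq, stood at 69.0, 74.6 and 88.3 TPM in PBS and at 114, 102 and 104 TPM in Acute 1 h. Again the groups did not overlap, with a log2(fold change) of 0.53 ± 0.11 (adjusted p = 0.00884), although the adjusted p reached 0.0557 without 1 PBS library (replicate 1 or 2). GRK5, a kinase held at the membrane by lipids, stood at 17.4, 17.5 and 19.0 TPM in PBS and at 12.7, 12.7 and 11.7 TPM in Acute 1 h. GRK5 fell by 0.47 ± 0.14 in log2(fold change) with an adjusted p of 0.0366, and leaving out any 1 of the 6 libraries raised its adjusted p to between 0.0697 and 0.116.

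RGS16, whose product acts on Gi and Gq and whose transcript is inducible in many cell types, stood at 81.6, 79.6 and 63.9 TPM in PBS and at 156, 156 and 156 TPM in Acute 1 h. The groups were far apart and the log2(fold change) was 1.12, but its SE was 0.52 and the adjusted p was 0.159. The wide SE came from a different group: RGS16 read 839 TPM in Acute 24 h replicate 1, and when that library was left out of the fit the same contrast gave 1.11 with an adjusted p of 5.59e-07. FOS, the immediate early gene used to follow dopamine responses, averaged 16.1 TPM in PBS, 243 TPM in Acute 1 h and 163 TPM in Chronic 1 h.

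At 24 h after the single 1 mM dose, RGS4 was still higher than in PBS and RGS2 was not. RGS4 stood at 36.7, 25.7 and 22.8 TPM, all above the 3 PBS libraries (log2(fold change) 0.60 ± 0.13, adjusted p = 0.0136), and the call was lost without PBS replicate 2 or 3 (adjusted p up to 0.0704). It and RGS16 (2.04 ± 0.53, adjusted p = 0.0249) were the 2 of 10 genes that passed, beside 15.5% of all genes, and the RGS16 call was lost without any 1 of the PBS libraries (adjusted p up to 0.0922). The RGS16 change was set by 1 library: its values of 839, 113 and 119 TPM gave 2.04 with all 3 libraries and 0.57 (adjusted p = 0.0014) without the first, when 6 of the 10 genes and 22.3% of all genes passed. RGS2 fell between the time points, from 107 TPM at 1 h to 69.2 ± 12 TPM (SD, n = 3) at 24 h, a log2(fold change) of -0.81 ± 0.12 (adjusted p = 0.00339). It was the only 1 of the 10 genes to pass between 24 h and 1 h, where 3.49% of all genes did. Without Acute 24 h replicate 1, RGS4 (-0.39, adjusted p = 0.0305) and RGS16 (-0.53, adjusted p = 0.00342) passed beside it, 3 of 10 genes where 9.3% of all genes did.

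After 5 daily doses of 1 mM the picture differed. None of the 10 genes passed against PBS at 1 h, where 2.08% of all genes did (1 of the 10 had an unadjusted p below 0.05), or at 24 h, where 0.663% did (3 of the 10 had an unadjusted p below 0.05). RGS4 stood at 11.9, 13.1 and 14.8 TPM in Chronic 1 h and at 11.8, 12.8 and 11.4 TPM in Chronic 24 h. All 6 of these libraries were below the lowest PBS value of 15.8 TPM, with log2(fold change) values of -0.40 (adjusted p = 0.138) and -0.54 (adjusted p = 0.108). RGS2 stood at 68.0, 66.5 and 69.7 TPM in Chronic 1 h, around the lowest PBS library. RGS16 stood at 126, 145 and 126 TPM in Chronic 1 h, above all 3 PBS libraries, and at 70.0, 82.4 and 70.5 TPM in Chronic 24 h, overlapping PBS.

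Set directly against each other, chronic dosing gave lower RGS4 and RGS2 than acute dosing at 1 h, the 2 of 10 genes that passed where 11.3% of all genes did. The log2(fold change) of Chronic 1 h against Acute 1 h was -1.26 ± 0.13 for RGS4 (adjusted p = 0.000156), or 0.417 of the acute level, and -0.75 ± 0.12 for RGS2 (adjusted p = 0.00127), or 0.593 of it. Both calls held whichever library was left out. RGS16 was lower by a value that did not pass (-0.35 ± 0.51, adjusted p = 0.716). At 24 h, RGS4 was again lower after chronic dosing (-1.13 ± 0.13, adjusted p = 0.000493), and RGS16 passed with it (-2.08 ± 0.53, adjusted p = 0.0313), 2 of 10 genes where 7.75% of all genes passed. The RGS16 call was lost without any 1 of the Chronic 24 h libraries (adjusted p up to 0.117) and with the replicate number as a block (-1.82, adjusted p = 0.0646), and its value was -0.61 (adjusted p = 0.000717) without Acute 24 h replicate 1. Between 24 h and 1 h of chronic dosing none of the 10 passed, and neither did any at an unadjusted p below 0.05, while 0.359% of all genes passed. Without Acute 24 h replicate 1 in the fit, RGS16 passed there (-0.81, adjusted p = 4.23e-05), 1 of 10 genes where 4.89% of all genes did.

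**Figure D2:**
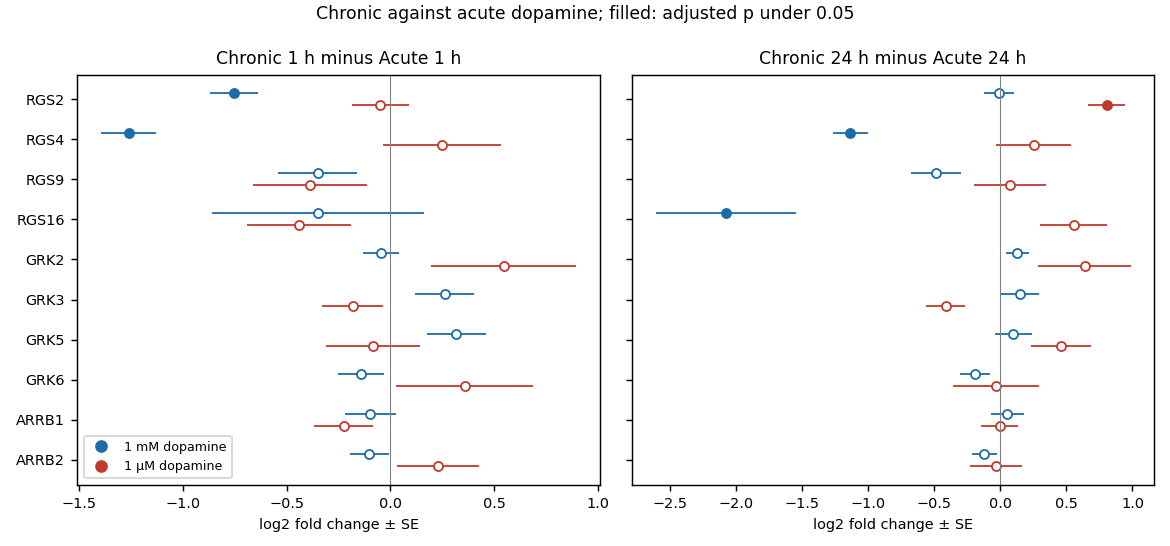
Log2(fold change) of each of the 10 genes in chronic against acute dosing, at 1 h and 24 h and at both doses, with bars of 1 SE from edgeR and filled points where the adjusted p is under 0.05. RGS4 at 1 mM sits at -1.26 (1 h) and -1.13 (24 h), and its 1 µM values are 0.25 at both times.

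Because the level of RGS4 followed the regimen more than the hour after dosing, other measures that moved with the regimen are given beside it. Reads in introns made up 12.3% to 15.9% of gene reads in the 6 acute libraries at 1 mM and 18.9% to 22.4% in the 9 PBS and chronic libraries. The summed level of 7 fibroblast or mural markers was 231 to 290 TPM in Acute 1 h and 144 to 232 TPM in Acute 24 h, against 99 to 125 TPM in PBS, 133 to 182 TPM in Chronic 1 h and 121 to 153 TPM in Chronic 24 h. The 5 progenitor markers followed the order of RGS4 without overlap, at 1383 to 1458 TPM in Acute 1 h and 1402 to 1444 TPM in Acute 24 h, 1270 to 1347 TPM in PBS, and 1114 to 1203 TPM in Chronic 1 h and 1090 to 1201 TPM in Chronic 24 h. The 5 astrocyte markers were at 106 to 140 TPM in the acute libraries, 115 to 151 TPM in PBS and 152 to 206 TPM in the chronic ones. The 4 markers of the oligodendrocyte lineage were at 80.8 to 96.3 TPM in PBS, 131 to 137 TPM in Chronic 1 h and 107 to 138 TPM in Chronic 24 h. The 5 neuronal markers were at 1585 to 1816 TPM in PBS, 1579 to 1743 TPM in Acute 1 h, 840 to 1618 TPM in Acute 24 h, 1511 to 1552 TPM in Chronic 1 h, which lay below PBS, and 1598 to 1727 TPM in Chronic 24 h. Striatal neuron markers were at 134 to 151 TPM in PBS, 115 to 131 TPM in Acute 1 h and 119 to 193 TPM in Acute 24 h. They were at 116 to 136 TPM in Chronic 1 h and 135 to 144 TPM in Chronic 24 h. Markers of GABA neurons (42.3 to 44.5 TPM in PBS, 38.0 to 40.3 TPM in Acute 1 h) and of medial ganglionic eminence interneurons (34.2 to 62.0 and 25.1 to 33.6 TPM) were also lower in Acute 1 h. Both overlapped PBS in Acute 24 h. The part of these differences in the RGS4 result was not tested.

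**Figure D3:**
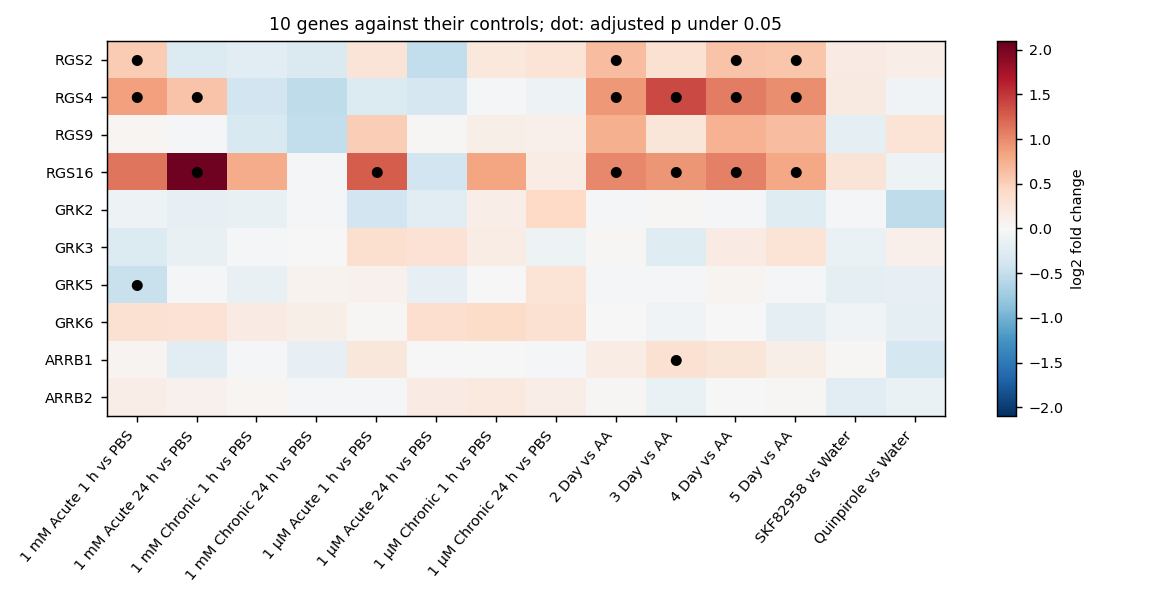
Log2(fold change) from edgeR of each of the 10 genes in the 14 treated conditions against the control of the same experiment, as a coloured grid in which dots mark an adjusted p under 0.05. RGS4 stands higher in both acute 1 mM conditions and throughout the time course, and its values in both chronic 1 mM conditions (-0.40 and -0.54) did not pass.

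The single library that stood apart in the 1 mM experiment widened the spread of many genes, and without it more of the 10 genes passed in every 1 mM comparison, as did more of all genes. In Acute 1 h against PBS the number was 6 where 39.8% of 18178 genes passed: RGS2, RGS4, RGS16 and GRK6 (0.30, adjusted p = 0.00688) were higher, and GRK5 (-0.49, adjusted p = 0.000216) and GRK3 (-0.29, adjusted p = 0.00715) were lower. GRK3, a close relative of GRK2, stood at 31.7, 32.3 and 32.7 TPM in PBS and at 26.2, 25.4 and 24.6 TPM in Acute 1 h, and GRK6 at 36.3, 31.8 and 34.7 TPM in PBS and at 41.0, 41.7 and 39.7 TPM in Acute 1 h. In Chronic 1 h against Acute 1 h, 5 genes passed where 34.0% of all genes did, with GRK3 (0.28, adjusted p = 0.0126) and GRK5 (0.33, adjusted p = 0.00423) higher and RGS2, RGS4 and RGS16 (-0.33, adjusted p = 0.0081) lower. Against PBS, Chronic 1 h then gave RGS16 higher (0.77, adjusted p = 3.84e-05) and RGS4 lower (-0.40, adjusted p = 0.0115), where 18.4% passed, and Chronic 24 h gave RGS4 lower (-0.54, adjusted p = 0.00547), where 8.48% passed. In Acute 1 h the log2(fold change) values hardly differed between the fits (0.86 and 0.84 for RGS4, 0.32 and 0.30 for GRK6), while their SEs were smaller without the library (0.13 and 0.10 for RGS4).

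**Figure D4:**
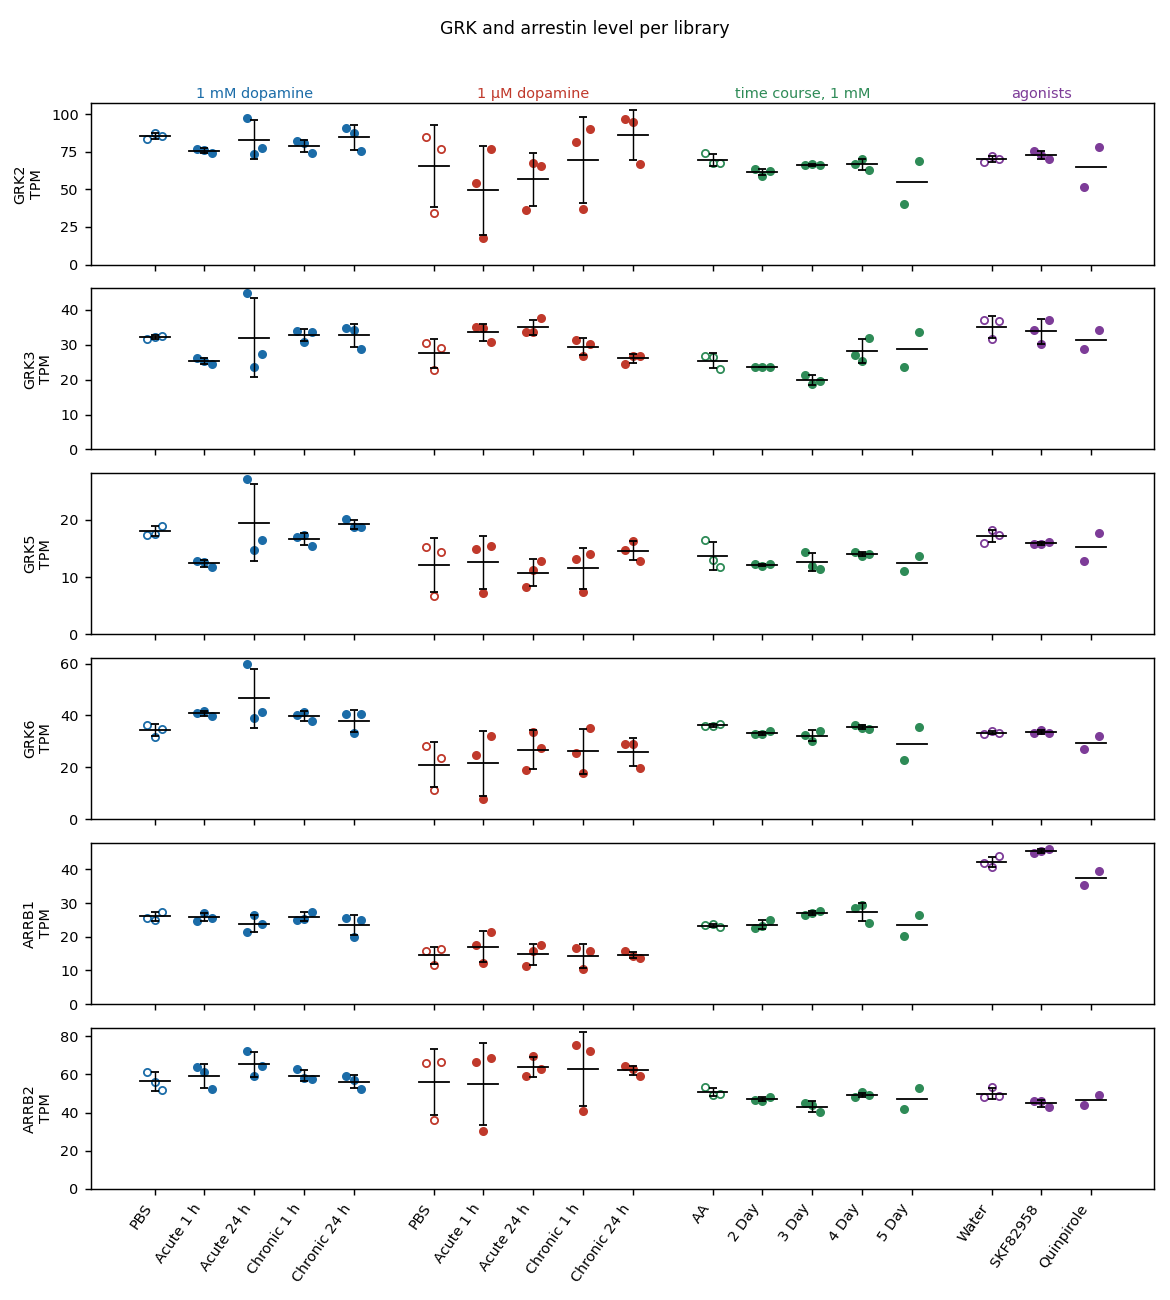
Level of GRK2, GRK3, GRK5, GRK6, ARRB1 and ARRB2 in each library, in TPM, by condition. Each point is 1 library (open for controls), lines are means, bars are 1 SD over 3 libraries, and Quinpirole replicate 1 is left out. GRK2 reads 17.7 to 36.6 TPM in the 4 libraries of the 1 µM experiment that are low in GC-rich transcripts.

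At 1 µM dopamine, RGS16 was the 1 gene of the 10 to pass 1 h after a single dose, where 5.77% of 16541 genes passed. It stood at 50.7, 38.0 and 45.2 TPM in PBS and at 139, 54.5 and 135 TPM in Acute 1 h, so all treated libraries were above all PBS libraries (log2(fold change) 1.26 ± 0.26, adjusted p = 0.00934). The adjusted p was 0.0504 without PBS replicate 3. In Chronic 1 h RGS16 stood at 95.3, 42.1 and 99.2 TPM, overlapping PBS (0.82, adjusted p = 0.117), and none of the 10 genes passed where 2.58% of all genes did. The low treated libraries, 54.5 and 42.1 TPM, were both among the 4 that were low in GC-rich transcripts. Without those 4, RGS16 rose by 1.57 in Acute 1 h (adjusted p = 6.15e-06, 14% of all genes called) and by 1.09 in Chronic 1 h (adjusted p = 0.000347, 9.86% called), and the chronic value was lower than the acute one by 0.47 (log2(fold change) -0.47, adjusted p = 0.0475, 1 of 10 genes where 6.39% of all genes passed). RGS16 was then also lower in Chronic 24 h than in Chronic 1 h (-0.88, adjusted p = 0.000441), the 1 gene of 10 where 9.98% passed. By 24 h after the single dose RGS16 was back at 28.2, 38.2 and 38.7 TPM, lower than at 1 h by a log2(fold change) of -1.67 ± 0.26 (adjusted p = 0.00678). This call was lost without Acute 24 h replicate 1 or 3 (adjusted p up to 0.0599).

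RGS2 at 1 µM differed at 24 h instead. It stood at 39.7, 48.1 and 46.9 TPM in Acute 24 h, below the PBS libraries at 65.4, 55.9 and 64.8 TPM, but this did not pass (-0.52, adjusted p = 0.0583), and none of the 10 genes did where 3.31% of all genes passed. Against Acute 1 h (75.3, 67.1 and 79.4 TPM) the fall passed (-0.79 ± 0.14, adjusted p = 0.0164), 1 of 2 genes, with RGS16, where 0.592% of all genes passed. It did not pass without any 1 of the Acute 24 h libraries (adjusted p up to 0.105). Without the 4 libraries low in GC-rich transcripts, none of the 10 passed in Acute 24 h against PBS, where 10.2% of all genes did, and RGS2 and RGS16 passed in Acute 24 h against Acute 1 h, 2 of 10 where 3.61% did. Chronic 24 h stood at 74.1, 74.2 and 84.9 TPM and exceeded Acute 24 h by 0.81 ± 0.14 (adjusted p = 0.00519), the 1 gene of 10 to pass where 4.48% of all genes did. Summed markers also separated these groups, with progenitor markers at 1735 to 1814 TPM in Chronic 24 h and 1869 to 2064 TPM in Acute 24 h, striatal neuron markers at 101 to 106 and 122 to 127 TPM, fibroblast or mural markers at 41.1 to 48.7 and 27.8 to 29.99 TPM, and astrocyte markers at 70.8 to 73.2 and 77.8 to 91.1 TPM. GABA neuron markers were at 12.5 to 15.6 TPM in Chronic 24 h and at 3.16 to 10.1 TPM in Acute 24 h. The part of these markers in the RGS2 result was not tested. RGS2 thus fell from 1 h to 24 h after a single dose at both concentrations, and chronic against acute dosing gave a lower level at 1 h with 1 mM and a higher level at 24 h with 1 µM. In the 3 remaining comparisons at 1 µM none of the 10 passed: Chronic 24 h against PBS (0.0% of all genes, 608 genes at an unadjusted p below 0.05 and none of the 10), Chronic 1 h against Acute 1 h (1.2%) and Chronic 24 h against Chronic 1 h (1.95%).

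RGS4 was low and flat at 1 µM. It stood at 7.69, 5.64 and 9.83 TPM in PBS, at 3.82, 6.91 and 7.33 TPM in Acute 1 h, at 3.79, 8.30 and 6.54 TPM in Acute 24 h, and between 6.12 and 7.71 TPM in the 6 chronic libraries. All groups overlapped PBS. The change from PBS 1 h after a single dose was larger at 1 mM than at 1 µM by 1.17 ± 0.30 on the log2 scale (adjusted p = 0.0362), the 1 gene of 10 to pass in that test of the difference where 2.01% of 18390 genes did, but the call held in 4 of 12 fits that left out 1 library each (adjusted p up to 0.0935). The difference between chronic and acute dosing at 1 h was more negative at 1 mM than at 1 µM by -1.55 ± 0.30 for RGS4 (adjusted p = 0.0048, held in 12 of 12) and by -0.75 ± 0.18 for RGS2 (adjusted p = 0.0232, held in 7 of 12), 2 of 10 genes where 2.51% passed. For Chronic 1 h against PBS none of the 10 differed between doses past the threshold, where 0.087% of all genes did and 1 of the 10 had an unadjusted p below 0.05. Without 1 mM Acute 24 h replicate 1, the tests between doses passed 2 of 10 genes for Acute 1 h (RGS4 and GRK3, 5.1% of all genes), none for Chronic 1 h (0.709%) and RGS4 and RGS2 for chronic against acute dosing (6.05%). Without the 4 libraries low in GC-rich transcripts, RGS4 was the 1 gene of 10 for Acute 1 h (1.48, adjusted p = 0.00441, 3.21% of all genes), none passed for Chronic 1 h (0.243%), and RGS4 and RGS2 passed for chronic against acute dosing (6.34%). The doses were separate experiments with controls that differed in RGS4, so dose and experiment cannot be told apart.

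**Figure D5:**
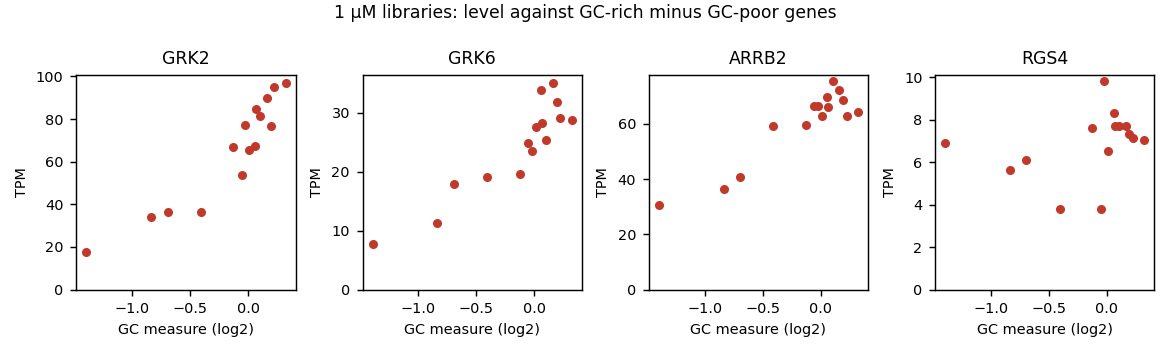
Level in TPM of GRK2, GRK6, ARRB2 and RGS4 in the 15 libraries (points) of the 1 µM experiment against the difference between the median log2 levels of GC-rich and GC-poor transcripts in the same library. The 4 libraries at the left, from -1.40 to -0.41, hold the lowest GRK2 values.

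The members differ in GC content. The transcript ranked at percentile 91.5 of all genes for GRK6, 90.1 for GRK2, 79.4 for ARRB2, 71.8 for ARRB1, 69.9 for GRK5 and 68.5 for RGS16, and at 32.7 for GRK3, 32.3 for RGS9, 24.4 for RGS2 and 16.1 for RGS4. GRK2 read 34.1, 17.7, 36.6 and 36.5 TPM in these 4 libraries and 53.9 to 96.9 TPM in the other 11. GRK6 read as low as 7.76 TPM in Acute 1 h replicate 2 beside 24.8 and 31.9 TPM in the other libraries of that group. The 1 µM values of GRK2, GRK5 and GRK6 had SEs of 0.23 to 0.35. Without the 4 libraries, 5 of the 10 passed in Chronic 24 h against Acute 24 h where 18.9% of all genes did: RGS2 (0.81), RGS16 (0.51, adjusted p = 0.0141), GRK2 (0.47, adjusted p = 0.0215) and GRK5 (0.39, adjusted p = 0.0428) were higher, and GRK3 (-0.34, adjusted p = 0.0389) was lower.

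In the time course RGS4 and RGS16 were higher than in AA on every day measured, and RGS2 on 3 of 4 days. RGS4 stood at 13.5, 13.6 and 15.8 TPM in AA and at 23.7, 22.2 and 27.3 TPM on 2 Day, 41.5, 31.7 and 31.9 TPM on 3 Day, 29.2, 31.5 and 27.9 TPM on 4 Day, and 23.6 and 28.2 TPM on 5 Day. No treated library overlapped AA, and the log2(fold change) was 0.90 ± 0.12 (adjusted p = 0.000608), 1.39 ± 0.12 (adjusted p = 8.85e-06), 1.07 ± 0.12 (adjusted p = 0.000143) and 0.98 ± 0.13 (adjusted p = 0.00109) on the 4 days in turn. The 3 Day level was the highest in the mean, but 5 Day against 3 Day did not pass (-0.40, adjusted p = 0.117).

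RGS16 stood at 36.1, 36.3 and 31.9 TPM in AA and between 45.8 and 76.3 TPM in the 11 treated libraries. The groups did not overlap on any day, and the log2(fold change) was 1.01, 0.93, 1.06 and 0.81 with adjusted p of 3.35e-05, 5.19e-05, 1.94e-05 and 0.00109. RGS2 stood at 61.1, 51.4 and 55.8 TPM in AA. It was higher by 0.65 on 2 Day (adjusted p = 0.00305), 0.60 on 4 Day (adjusted p = 0.00456) and 0.59 on 5 Day (adjusted p = 0.0189, up to 0.09 without 1 library), and its 3 Day libraries at 72.4, 58.5 and 65.8 TPM overlapped AA (0.32, adjusted p = 0.0712). These 3 RGS genes were the only ones of the 10 to pass on 2 Day (3.88% of 16768 genes passed), 4 Day (4.38%) and 5 Day (1.63%), while 3 Day (7.37%) had RGS4, RGS16 and ARRB1. The share of members that passed, 3 of 10, exceeded the share of all genes on each day. The same AA libraries were behind all 4 comparisons. As the 10 genes were chosen with earlier results of these data known, this share is no test of the set.

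The intron share of the time course libraries was 12.7% to 18.3%, with AA at 14.7% to 15.8% inside that range. Fibroblast or mural markers summed to 167 to 226 TPM in AA and 198 to 624 TPM in the treated libraries, highest on 3 Day (297 to 624 TPM), the day on which RGS4 was highest. Progenitor markers were at 1332 to 1404 TPM in AA and at 967 to 1307 TPM in the treated libraries, and the 11 striatal neuron markers at 160 to 179 TPM in AA and at 112 to 156 TPM in the treated libraries, neither with overlap. The part of these differences in the RGS results was not tested. ARRB1, the arrestin 2 gene, stood at 23.3, 23.7 and 22.9 TPM in AA and at 26.5, 26.9 and 27.7 TPM on 3 Day (0.31 ± 0.07, adjusted p = 0.0189), and the call was lost without any of 4 of the 6 libraries (adjusted p up to 0.0944). GRK3 was higher on 5 Day (23.5 and 33.8 TPM) than on 3 Day (21.4, 18.7 and 19.6 TPM) by 0.54 ± 0.10 (adjusted p = 0.0244), the 1 gene of 10 to pass where 1.16% did. That call was lost without 3 Day replicate 2 or 3 (adjusted p up to 0.124). RGS9 was higher in the mean on all days, by 0.75 on 2 Day (adjusted p = 0.0797) and 0.73 on 4 Day (adjusted p = 0.0823), without passing.

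The 5 Day group and the Chronic 1 h group of the 1 mM experiment shared dose, number of daily doses and hour of extraction but stood on different sides of their controls for RGS4. RGS4 was at 25.9 ± 3.20 TPM (SD, n = 2) against 14.3 TPM in AA in the former and at 13.3 ± 1.46 TPM (SD, n = 3) against 17.1 TPM in PBS in the latter. A test of this difference, added after both values were seen, gave 1.39 ± 0.19 for RGS4 (adjusted p = 0.00122) and 0.82 ± 0.17 for RGS2 (adjusted p = 0.0203, up to 0.0881 without 1 library), the 2 of 10 genes that passed where 0.665% of 18349 genes did. Without 1 mM Acute 24 h replicate 1 the same 2 genes passed (RGS4 1.39, adjusted p = 2.32e-05, and RGS2 0.82, adjusted p = 0.00307), where 6.03% of all genes did. RGS16 did not differ past the threshold (0.04 ± 0.60, adjusted p = 0.99). The controls of the 2 experiments also differed in vehicle, PBS against AA, and vehicle and experiment cannot be told apart here.

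None of the 10 genes passed with either agonist. SKF82958 against Water had 0.0124% of 16132 genes passed (1 of the 10, RGS16, at an unadjusted p below 0.05), and Quinpirole had 0.0% (350 genes and none of the 10 at an unadjusted p below 0.05). RGS16 stood at 57.4, 56.5 and 56.9 TPM in Water and at 69.2, 72.6 and 75.8 TPM with SKF82958, which did not overlap (0.27 ± 0.10, adjusted p = 1). RGS4 stood at 35.7, 38.1 and 40.2 TPM in Water, at 39.2, 51.6 and 47.0 TPM with SKF82958 and at 34.9 and 37.4 TPM with Quinpirole. RGS2 stood at 97.3, 82.3 and 87.4 TPM in Water and at 101, 109 and 110 TPM with SKF82958. Water gave the highest RGS2 and RGS4 levels of the 4 control groups, and FOS in the Water libraries was already at 204 to 280 TPM against 6.19 to 19.1 TPM in the other 9 control libraries. Without Quinpirole replicate 1 in the fit the shares passed were 0.624% and 0.184% of 16343 genes, with none of the 10 in either.

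The calls on the kinases and arrestins are those already named. With all libraries kept, GRK2, GRK6 and ARRB2 passed in none of the 27 comparisons, in which 0.0% to 16.0% of all genes passed. With such shares, the lack of a call does not set these genes apart from other genes. GRK2 in the time course lay between 59.1 and 70.4 TPM in all treated libraries but 5 Day replicate 2 (40.4 TPM), against 67.2 to 74.1 TPM in AA. The difference between GC-rich and GC-poor transcripts in 5 Day replicate 2, -0.262, was the lowest of the time course. Its part in the low level of the GC-rich GRK2 was not tested. ARRB2 at 1 mM lay between 51.7 and 61.4 TPM in PBS and between 52.3 and 72.1 TPM in the 12 treated libraries. ARRB1 differed more by experiment than by treatment, with control means of 14.5 TPM (1 µM PBS), 23.3 TPM (AA), 26.0 TPM (1 mM PBS) and 42.2 TPM (Water). At 1 mM the SEs of GRK2, GRK6, ARRB1 and ARRB2 were 0.08 to 0.12.

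The wider pathway was followed through 5 lists. In 1 mM Acute 1 h against PBS, where 16.0% of all genes passed, 16 of 21 other RGS genes and binding partners were tested. Of these, 2 were higher (RGS5 and RGS8) and 3 lower (RGS7BP, RGS14 and RGS11). Of 11 other kinases and arrestin-domain genes, 7 were tested and none passed, though ARRDC3 (1.71, adjusted p = 0.0751) did without Acute 24 h replicate 1 (1.69, adjusted p = 3e-05). Of 23 G protein subunits, 1 was higher and 1 lower, and of 11 genes of receptor internalisation 1 was lower. RGS5, a regulator best known from mural cells, stood at 5.93, 6.27 and 4.29 TPM in PBS and at 19.3, 16.2 and 20.4 TPM in Acute 1 h (1.83 ± 0.26, adjusted p = 0.000776). RGS8, a regulator of Gi and Gq made in striatal and Purkinje neurons, stood at 34.0, 30.8 and 26.9 TPM in PBS and at 51.0, 62.1 and 59.8 TPM in Acute 1 h (0.98 ± 0.12, adjusted p = 0.000372). These list counts are with all libraries kept. Against PBS none of the 5 lists had a gene that passed in Chronic 1 h or Chronic 24 h at 1 mM, where 2.08% and 0.663% of all genes did. Without Acute 24 h replicate 1 some did, among them RGS3 (0.52, adjusted p = 0.000671) and ARRDC3 (1.27, adjusted p = 0.000767) in Chronic 1 h and RGS11 (-1.31, adjusted p = 0.0171) in Chronic 24 h.

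RGS5 and RGS8 are the chromosomal neighbours of members. RGS4 and RGS5 lie 34.3 kb apart, RGS16 and RGS8 lie 37.4 kb apart, and 10 of the 21 RGS genes in these lists lie on chromosome 1. Like RGS4, RGS5 was higher at both times after a single 1 mM dose (1.42 ± 0.25 at 24 h, adjusted p = 0.00555) and lower in chronic than in acute dosing (-1.97 at 1 h, adjusted p = 0.000547, and -1.61 at 24 h, adjusted p = 0.00272). RGS8 likewise stood at 67.8, 54.4 and 51.4 TPM in Acute 24 h (0.79 ± 0.12 against PBS, adjusted p = 0.00292) and was lower in chronic than in acute dosing by -1.0 at 1 h (adjusted p = 0.000395) and -1.04 at 24 h (adjusted p = 0.000544). All of these RGS5 and RGS8 calls held without Acute 24 h replicate 1. In the time course RGS8 passed on 2 Day (0.45, adjusted p = 0.0172), 3 Day (0.38, adjusted p = 0.0208), 4 Day (0.49, adjusted p = 0.0096) and 5 Day (0.50, adjusted p = 0.0238), and RGS5 on 3 Day (0.82, adjusted p = 0.0412). At 1 µM neither passed against PBS in any of the 4 comparisons.

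The pattern of each gene that passed against a control was compared with that of all genes as a description. Pearson's r was taken over the 14 treated conditions on the log2 ratio to control, for 20294 genes, with the points sharing 4 sets of controls. The genes closest to RGS4 were PPP1R14C (r = 0.95), RASD2 (r = 0.94), a striatum-enriched small GTPase also known as Rhes, and GFRA1 (r = 0.94). Those closest to RGS16 were TRIB3 (r = 0.93), ZMAT4 (r = 0.88) and TRIB1 (r = 0.87), and those closest to RGS2 were PYGL (r = 0.92), BTF3 (r = 0.92) and ATP2B4 (r = 0.91). The largest RGS16 ratio, 1.575, was that of 1 mM Acute 24 h, in which replicate 1 was kept. The genes named for RGS16 may therefore share that library, and no r was taken without it. GRK5 was closest to C1QTNF12 (r = 0.92), AC068831.2 (r = 0.92) and ATP6V1C2 (r = 0.90), and ARRB1 to FOXD1 (r = 0.91), CHURC1-FNTB (r = 0.81) and AC130324.2 (r = 0.80). Between members the closest pair was GRK6 and ARRB2 (r = 0.92), both rich in GC, while RGS2 with RGS4 gave 0.61 and RGS4 with RGS16 gave 0.53.

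Some values carry limits from the annotation. RGS2 overlaps the antisense long noncoding RNA AL390957.1, whose exons averaged 5.83 reads a library beside 508 for RGS2, and GRK6 overlaps F12 (32.0 reads beside 469) and PRR7-AS1 (13.2 reads) on the other strand. The GRK3 gene holds the processed pseudogene YES1P1 (3.40 reads beside 898). The strand setting of the counting is not stated, so reads of these pairs may not be told apart, and the partners' counts bound how much could be shared. The remaining members lie at chr17:65100812-65227703 (RGS9), chr11:67266473-67286556 (GRK2), chr22:25564675-25729294 (GRK3), chr10:119207571-119459745 (GRK5), chr5:177403204-177442901 (GRK6) and chr17:4710596-4721499 (ARRB2) on the plus strand, and chr11:75260122-75351705 (ARRB1) on the minus strand of hg38.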

How the data were processed

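Total RNA from 54 labelled cultures was sequenced, and 53 libraries were analysed; 5 Day replicate 1 is not analysed here. Per the methods, the authors mapped reads and counted them per gene with CLC Genomics Workbench against the human genome (hg38 in the submitters' notes) with Ensembl gene models and default settings; the strand setting and the sequencing provider of each library are not given in the sources used here. The deposited files give the count of exon, intron and unique reads for each gene and TPM, which the authors' software computed from exon reads. Depth ranged from 137051 to 27702963 exon reads, and precision follows the reads of each gene.

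The test on exon read counts was the quasi-likelihood F test of edgeR 4.0.16 under R 4.3.3 (filterByExpr, TMM, Benjamini-Hochberg adjustment over all genes, threshold 0.05), 1 fit for each experiment, and for the dose differences 1 fit of both dopamine experiments. TPM was used for levels only. On simulated counts for 1 mM Acute 1 h against PBS with 17804 genes, edgeR recovered 161 of 200 genes changed by 1 log2 unit and 14 of 200 changed by 0.5. Alternatives were total and unique gene reads, DESeq2 1.42.0 (size factors, and its Wald test), no filter, at least 10 reads in every library, only the groups compared, the replicate number as a block, and leaving out each library. The fits without the 4 libraries low in GC-rich transcripts, some fits without Acute 24 h replicate 1 or Quinpirole replicate 1, and the difference between experiments were added after seeing the data. The 10 genes and all lists were chosen with earlier results of these data known.

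Named among other pathway genes are those that passed with the largest changes, up to 3 in a comparison, and RGS7BP and RGS14, which were named after their values were seen. The 3 genes most alike in pattern were named for members that passed against a control. No column of the files was left without a sample (0 columns). Promoter sequences matched 8 of the 10 genes; GRK3 and ARRB1 were not matched. Some results are not reported here.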

Additional observations from a re-analysis of the deposited data

Results flagged for a closer look

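The change of RGS4 from PBS 1 h after a single dose differed between the doses by 1.17 on the log2 scale (SE 0.30, adjusted p = 0.0362 by edgeR), with RGS4 higher in 3 of 3 libraries at 1 mM and within the range of PBS or below it in 3 of 3 at 1 µM. The difference of chronic from acute dosing at 1 h also differed between doses, by -1.55 for RGS4 (SE 0.30, adjusted p = 0.0048) and by -0.75 for RGS2 (SE 0.18, adjusted p = 0.0232). These are tests of the differences themselves. Leaving out 1 library at a time, the first of them held in 4 of 12 fits (adjusted p up to 0.0935), the second in 12 of 12 (up to 0.0225) and the third in 7 of 12 (up to 0.0755). The libraries whose loss ended the first call were any of the 6 of 1 mM PBS and 1 mM Acute 1 h, 1 µM PBS replicate 3 and 1 µM Acute 1 h replicate 1. The third was lost without 1 mM Acute 1 h replicate 1 or 3 or any 1 mM Chronic 1 h library.

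The 5 Day change against AA differed from the Chronic 1 h change against PBS by 1.39 for RGS4 (SE 0.19, adjusted p = 0.00122) and by 0.82 for RGS2 (SE 0.17, adjusted p = 0.0203). The RGS2 call was lost without Chronic 1 h replicate 2, 5 Day replicate 2 or AA replicate 2 (adjusted p up to 0.0881), and the RGS4 call held in 11 of 11 fits. Both groups had received 5 daily doses of 1 mM and were extracted 1 h after the last. The summed fibroblast or mural markers were 263 to 374 TPM on 5 Day, against 167 to 226 TPM in AA. They were 133 to 182 TPM in Chronic 1 h, against 99 to 125 TPM in PBS, and their part in the difference was not tested.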

How the results depend on the processing

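Counts of the 10 genes that passed moved as follows. Calls over all genes moved as well, and total or unique gene reads gave several times more of them in 1 mM Acute 1 h. The counts of the 10 genes are therefore no result about these genes. With total gene reads and with unique gene reads in place of exon reads they were 6 in 1 mM Acute 1 h, 5 in Acute 24 h, 5 in Chronic 1 h against Acute 1 h, 4 in Chronic 24 h against Acute 24 h, 0 in 5 Day against 3 Day, 2 in the dose difference of Acute 1 h, 1 in the difference between experiments, and 1 and 0 in 1 µM Acute 24 h against Acute 1 h. RGS4 in Acute 1 h was 1.18 with total gene reads beside 0.86. Only the groups compared gave 6, 0, 2, 5, 0, 0 and 1 at 1 mM (Acute 1 h, Acute 24 h, Chronic 1 h, Chronic 1 h against Acute 1 h, Chronic 24 h against Acute 24 h, Acute 24 h against 1 h, Chronic 24 h against 1 h), 0, 5 and 0 at 1 µM (Acute 1 h, Chronic 24 h against Acute 24 h, Acute 24 h against 1 h) and 0 in 5 Day against 3 Day. Without 1 mM Acute 24 h replicate 1 the counts were 6, 6, 2, 1, 5, 4, 3 and 1 in the 8 comparisons at 1 mM (against PBS for Acute at 1 h and 24 h and Chronic at 1 h and 24 h, then Chronic against Acute at 1 h and 24 h, then 24 h against 1 h in Acute and in Chronic, and with total gene reads 8, 7, 2, 1, 8, 5, 3 and 1) and 2 in the dose difference of Acute 1 h in both. With exon reads, the shares of all genes without that library were 39.8%, 22.3%, 18.4%, 8.48%, 34%, 15.2%, 9.3% and 4.89% in the same 8 comparisons. RGS16 in 1 mM Acute 24 h against Acute 1 h was 0.91 with all libraries, ran from -0.53 to 1.32 when 1 library was left out at a time, and reversed to -0.53 without Acute 24 h replicate 1, -0.59 with total gene reads as well and -0.54 with the block as well. GRK2 in 1 mM Acute 1 h reversed from -0.11 to 0.17 with total gene reads and without that library.

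Without the 4 libraries low in GC-rich transcripts, 1, 1, 5 and 1 genes passed at 1 µM in Chronic 1 h, Chronic 1 h against Acute 1 h, Chronic 24 h against Acute 24 h and Chronic 24 h against Chronic 1 h. Over all genes, 9.86%, 6.39%, 18.9% and 9.98% passed in the same comparisons. DESeq2's Wald test gave 1 in 1 mM Chronic 24 h, 2 in Acute 24 h against Acute 1 h, 1 in 1 µM Acute 24 h and 1 in 1 µM Chronic 1 h, with no p for RGS16 at 1 mM. At least 10 reads gave 1 in 1 µM Acute 24 h. No filter gave 1 in 1 µM Acute 24 h against Acute 1 h, 2 in 5 Day against 3 Day, and 0 and 1 in the dose differences of Acute 1 h and of Chronic 1 h against Acute 1 h. DESeq2's size factors moved no count of members by over 1.5 times. With log2(TPM + 0.1), 1 of the 3 genes closest to GRK5 remained.

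Leaving out 1 library at a time gave 1 to 2 genes in 1 mM Acute 1 h, 0 to 6 in Acute 24 h, 1 to 4 in Chronic 24 h against Acute 24 h and 1 to 3 in Acute 24 h against Acute 1 h. At 1 µM it gave 0 to 1 in Acute 1 h, 0 to 1 in Chronic 1 h and 0 to 2 in Acute 24 h against Acute 1 h. It gave 0 to 2 in 5 Day against 3 Day, 0 to 2 and 1 to 2 in the 2 dose differences with calls, and 1 to 2 in the difference between experiments. The RGS4 calls of chronic against acute dosing at 1 mM and of the 4 days against AA held in all of these fits.

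The mean correlation of same-numbered deviations was 0.002 at 1 mM, 0.0229 at 1 µM, -0.0103 in the time course and 0.0026 for the agonists. At 1 µM same-numbered pairs ran from -0.301 to 0.446, with 14 of 30 over 0.1. There 3 of the 4 libraries low in GC-rich transcripts are replicate 2, so the low mean cannot show that replicate numbers did not pair libraries. With the replicate block, RGS16 in 1 mM Chronic 24 h against Acute 24 h was -1.82 (adjusted p = 0.0646, 1 gene passed) and RGS2 in the difference between experiments was 0.82 (adjusted p = 0.0573, 1 gene passed), and no other call on a member changed. Block and no 1 mM Acute 24 h replicate 1 together gave 6, 2, 1, 5, 4, 2 and 1 (Acute 1 h, Chronic 1 h, Chronic 24 h, Chronic 1 h against Acute 1 h, Chronic 24 h against Acute 24 h, Acute 24 h against 1 h, Chronic 24 h against 1 h). Depth limits RGS9 most, at 34 to 148 exon reads outside Quinpirole replicate 1. Over all genes, calls in 1 mM Acute 1 h numbered 2845, and 12271 with total gene reads, 12109 with unique gene reads, 7592 with only the groups compared and 7236 without Acute 24 h replicate 1. The median of all genes moved by 0.11 with total gene reads in 1 µM Chronic 1 h and by -0.14 in the dose difference of Chronic 1 h.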

Other observations

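Of the list of other kinases and arrestins, 3 of 8 tested genes were lower 1 h after 1 µM dopamine (ARRDC3, TXNIP and ARRDC4), where 5.77% of all genes passed. ARRDC4 changed by -1.12 (adjusted p = 0.00197). ARRDC3, an alpha-arrestin that helps to sort receptors after internalisation, stood at 110 to 120 TPM in the 1 µM PBS libraries and at 15.8 to 27.0 TPM in 1 µM Acute 1 h (log2(fold change) -2.38 ± 0.28, adjusted p = 0.000181 by edgeR). At 1 mM it stood at 90.6 to 150 TPM in PBS and at 363 to 382 TPM in Acute 1 h, where the change of 1.71 did not pass with all libraries (adjusted p = 0.0751) and passed without Acute 24 h replicate 1 (1.69, adjusted p = 3e-05). ARRDC3 in that library was at 895 TPM beside 77.9 and 119 TPM in the others. The test of the difference between doses gave 4.12 ± 0.70 (adjusted p = 0.00152). After 5 daily doses the values at 1 h were -2.57 ± 0.28 at 1 µM (adjusted p = 0.000236) and 1.27 ± 0.61 at 1 mM (adjusted p = 0.322, and 0.000767 without Acute 24 h replicate 1), and the doses differed by 3.82 (adjusted p = 0.0163). In the time course, also at 1 mM, ARRDC3 was lower than in AA, by -0.66 on 2 Day (adjusted p = 0.000817), -0.32 on 3 Day (adjusted p = 0.036) and -0.54 on 4 Day (adjusted p = 0.00324), and did not pass on 5 Day (-0.29, adjusted p = 0.159).

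TXNIP, an alpha-arrestin that limits glucose uptake and binds thioredoxin, stood at 738 to 1162 TPM in the 1 µM PBS libraries and at 121 to 128 TPM in Acute 1 h (-2.88 ± 0.16, adjusted p = 1.58e-07). It stood at 544 to 696 TPM in Acute 24 h (-0.61, adjusted p = 0.0409) and at 222 to 390 TPM in Chronic 1 h (-1.70, adjusted p = 4.65e-05). At 1 mM its Acute 1 h value did not pass (-0.37 ± 0.49, adjusted p = 0.661, and -0.38, adjusted p = 0.338 without Acute 24 h replicate 1). In the time course TXNIP was lower than in AA on 3 Day (-1.39, adjusted p = 0.00293) and did not pass on the other days. No explanation of these values was tested.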
